A study of Homo sapiens with 16 samples.

Results

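The B cell receptor and the surface and signalling genes around it were followed in 2 multiple myeloma (MM) cell lines treated with histone methyltransferase inhibitors. The members, given by gene symbol, were MS4A1, CD79A, CD79B, CD22, CR2, FCER2, BLK, BTK and SYK, 9 of 34423 gene symbols on the array and 11 of its 50599 probes. RPMI-8226 and MM.1S, 2 established human MM cell lines, were given the solvent DMSO, 1 µM GSK126, an inhibitor of the methyltransferase EZH2, 1 µM UNC0638, an inhibitor of the methyltransferase G9a, or both (GSK126+UNC0638) at 1 µM each. All cells were treated for 6 days, and each of the 8 groups had 2 biological replicates, each on its own 1-colour array (16 arrays). Each line descends from a single tumor, and cells without solvent were not among these arrays. In bulk RNA, a change in how many cells carry a transcript and a change in the amount per cell cannot be told apart.

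The B cell receptor is a membrane immunoglobulin that signals through the CD79A and CD79B chains. Kinases of the Src family such as BLK phosphorylate these chains, SYK is recruited to them, and BTK carries the signal on to phospholipase C. MS4A1 (CD20) is a surface protein targeted by therapeutic antibodies, CD22 restrains the receptor, CR2 (CD21) is the complement receptor of the co-receptor complex, and FCER2 (CD23) is the low-affinity IgE receptor. B cells lose most of this program when they become plasma cells, the cells from which MM arises.

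Markers of plasma cells and B cells were checked first. Of 11 plasma cell markers on the array, 10 were well above background on all 8 arrays of either line. PAX5, the factor that defines B cell identity, was not well above background on any of the 16 arrays. Of the 9 B cell markers, 7 of which are members, 4 were not well above background on any RPMI-8226 array and 4 on any MM.1S array. Values below are the log2 intensity of a probe minus the 75th percentile of its array, called the level, and levels are compared only within a probe. The scanner software's call of a signal well above the local background was given to 46.5% to 52.8% of spots, depending on the array.

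CR2 and BTK were read by 2 probes each, and the other members by 1 probe each, which for SYK was printed as 10 spots. In the array's GRCh37 coordinates the MS4A1 probe lay at chr11:60238115-60238174, the brighter CR2 probe at chr1:207663116-207663175, the brighter BTK probe at chrX:100604461-100604520 and the SYK probe at chr9:93658142-93658201. Whether these lie in coding or untranslated sequence was not determined, since no annotation of that build was used here. Probes for 2 members crossed an exon junction, since their 60 bases spanned more than 60 bases of the genome, so they read spliced RNA. They are shown because both genes rose in MM.1S. The dimmer BTK probe spanned 578 bases of the minus strand at chrX:100608334-100608911 and the FCER2 probe 158 bases of the minus strand at chr19:7761799-7761956.
BTK probe: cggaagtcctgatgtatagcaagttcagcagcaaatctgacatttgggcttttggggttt
FCER2 probe: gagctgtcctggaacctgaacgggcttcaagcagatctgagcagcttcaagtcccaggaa

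The promoters of BTK, CR2 and SYK are shown because these 3 genes moved together between RPMI-8226 replicates, as described below. The RefSeq-based promoter table (GRCh38.p14, 250 bases before to 50 after a transcript start) held 10 promoters of 6 members, CD79A, CD22, CR2, FCER2, BTK and SYK. MS4A1, CD79B and BLK were not matched. Capitals mark the purine box GAGGAA or its reverse complement TTCCTC, a core bound by PU.1, a myeloid and B cell factor. Both strands were also searched for the octamer ATTTGCAT, a core bound by the OCT factors of B cells, a motif that does not contain the purine box.
BTK, chrX:101390747-101391046, minus strand: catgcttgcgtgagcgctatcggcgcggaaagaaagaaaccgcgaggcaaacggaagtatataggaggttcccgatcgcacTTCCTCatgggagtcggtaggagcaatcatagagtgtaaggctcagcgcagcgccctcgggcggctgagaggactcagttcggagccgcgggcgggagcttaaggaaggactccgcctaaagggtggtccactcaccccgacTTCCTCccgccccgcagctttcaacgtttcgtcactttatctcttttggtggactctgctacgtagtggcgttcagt
SYK, chr9:90801569-90801868, plus strand: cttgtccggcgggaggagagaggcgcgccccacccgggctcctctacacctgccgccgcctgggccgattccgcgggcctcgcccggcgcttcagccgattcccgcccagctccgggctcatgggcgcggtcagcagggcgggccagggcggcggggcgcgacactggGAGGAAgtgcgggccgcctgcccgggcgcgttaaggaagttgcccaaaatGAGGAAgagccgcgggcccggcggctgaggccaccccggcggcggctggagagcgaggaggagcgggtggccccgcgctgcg
CR2, chr1:207454078-207454377, plus strand: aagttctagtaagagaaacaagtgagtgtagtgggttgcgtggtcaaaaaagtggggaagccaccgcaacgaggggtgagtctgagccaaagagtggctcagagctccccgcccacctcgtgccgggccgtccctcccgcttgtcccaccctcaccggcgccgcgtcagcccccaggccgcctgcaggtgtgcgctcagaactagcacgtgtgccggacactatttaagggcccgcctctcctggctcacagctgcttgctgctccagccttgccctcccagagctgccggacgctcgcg

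The BTK and SYK promoters shown held 2 purine boxes each, and the CR2 promoter held neither motif. These were the richest in purine boxes of 2 BTK and 3 SYK promoters in the table, of which the others held 1 (BTK) and 0 and 1 (SYK), and the 2 FCER2 promoters held 0. A purine box was present in 27.9% of the 35116 promoters of the table, the octamer in 1.77%. None of the 10 promoters of members held an octamer. The SYK promoter shown held 40 CpG dinucleotides, more than 92.4% of all promoters, the BTK promoter 27 and the CR2 promoter 21, against a median of 14. Methylation and factor binding were not measured on these arrays.

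The levels of 5 members differed between the lines in cells given only DMSO. In the 16-array fit with limma and Benjamini-Hochberg adjustment, with a threshold of 0.05, 5 of 8 members tested were called between DMSO-treated RPMI-8226 and MM.1S cells, where 57.7% of all probes were called. BLK and FCER2 were higher in RPMI-8226, and CD79B, CR2 and SYK were higher in MM.1S. BLK and CD79B passed the filter only through the line where they were higher, so this count and share are a description. Each line was on its own slide and was scanned separately, so line and slide cannot be told apart. CD22 was not well above background on any of the 16 arrays and was not tested in any comparison.

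BLK, a Src family kinase of B cells, was read at 2.51 and 2.74 in DMSO-treated RPMI-8226 cells. In MM.1S the same probe was not well above background on any of the 8 arrays. The level in RPMI-8226 was at least 170-fold higher (adjusted p = 6.06e-09). Such a lower bound sets the brighter group's mean against the lowest signal that passed as well above background on each dim array, or the dim probe's own signal where that was higher. CD79B showed the opposite pattern. It was at -0.75 and -0.80 in DMSO-treated MM.1S cells and was not well above background on any of the 8 RPMI-8226 arrays, at least 12.3-fold lower there (adjusted p = 1.91e-05). Its partner CD79A was well above background on all 16 arrays and read 1.97 and 2.11 in RPMI-8226 and 2.55 and 2.43 in MM.1S with DMSO, a difference of -0.45 ± 0.39 (SE, adjusted p = 0.346). The transcript for only 1 of the 2 signalling chains was therefore above background in RPMI-8226, and the transcripts for both were in MM.1S.

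SYK was read at 3.16 and 3.17 in DMSO-treated MM.1S cells and at -2.95 and 0.29 in the RPMI-8226 cells, a difference of -4.50 ± 1.21 (adjusted p = 8.69e-03). The SYK call was lost without the first RPMI-8226 DMSO array (-2.88, adjusted p = 0.0845), and BTK was called in that fit (1.31, adjusted p = 0.0402). CR2 was read at 2.75 and 2.59 in MM.1S and at -2.90 and -1.16 in RPMI-8226, a difference of -4.69 ± 0.78 (adjusted p = 4.23e-04). Both genes were lower on either RPMI-8226 array than on either MM.1S array, but the RPMI-8226 replicates lay far apart. FCER2 was read at -2.85 and -2.05 in RPMI-8226 and was not well above background in DMSO-treated MM.1S cells, at least 5.05-fold higher in RPMI-8226 (adjusted p = 2.47e-05). MS4A1 was not well above background on any of the 4 DMSO arrays. BTK was well above background on all of them and read 0.44 and 1.73 in RPMI-8226 and 0.41 on both MM.1S arrays (adjusted p = 0.242), while its dimmer probe was called at 0.85 ± 0.32 (adjusted p = 0.0436).

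**Figure D1:**
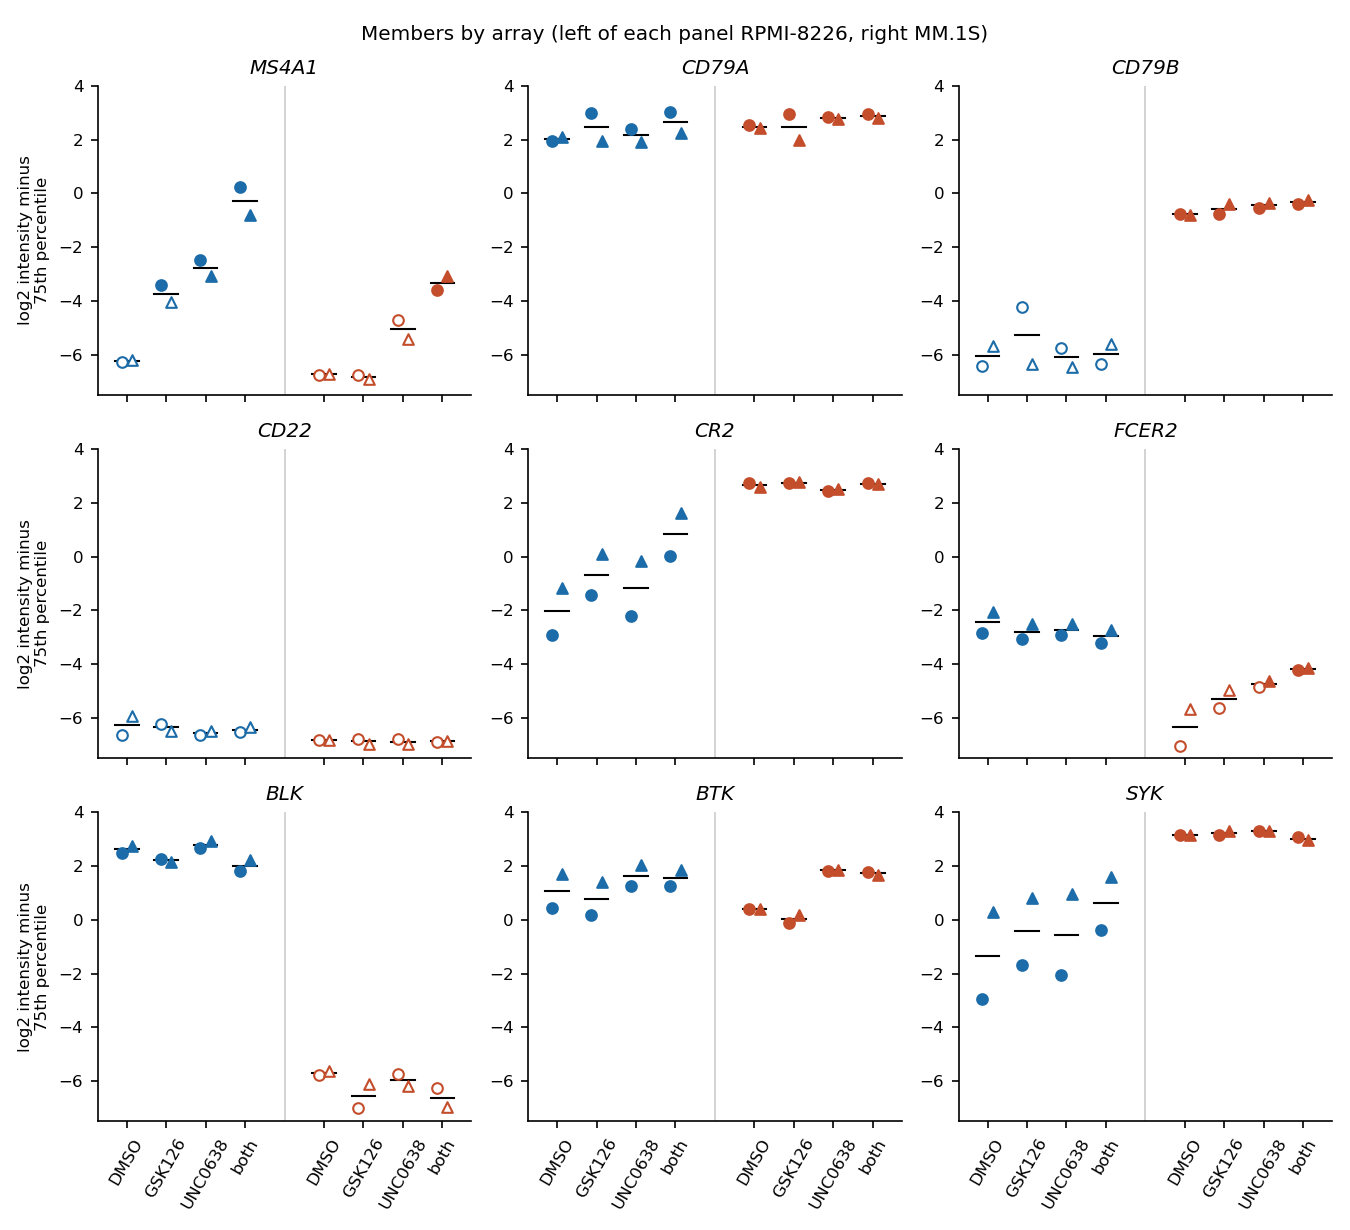
Level (log2 intensity minus the array's 75th percentile) of each member's brightest probe on the 16 arrays, by line (blue RPMI-8226, red MM.1S) and treatment, with circles for replicate 1, triangles for replicate 2, bars for means of 2 arrays and open symbols where the probe was not well above background. MS4A1 climbed from open symbols at about the floor in DMSO to 0.24 and -0.81 with both inhibitors in RPMI-8226, while BLK and CD79B each appear in 1 line.

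MS4A1 was the member with the largest response to the inhibitors, and the only one called with GSK126+UNC0638 in both lines. In RPMI-8226 it was not well above background in DMSO (-6.27 and -6.18), and read -3.41 and -4.06 with GSK126, -2.49 and -3.06 with UNC0638, and 0.24 and -0.81 with GSK126+UNC0638. The arrays of the 4 groups did not overlap, and the means rose in that order. The probe was well above background on 1 of 2 GSK126 arrays and on both arrays of the other 2 treatments.

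With GSK126+UNC0638, MS4A1 was at least 17.2-fold higher than with DMSO in RPMI-8226, with a measured log2 difference of 5.94 ± 0.39 (SE, n = 2 and 2, adjusted p = 5.63e-04 with limma), and it was the 1 member called of 7 tested, where 12.4% of all probes were called. With UNC0638 it was at least 3.07-fold higher (3.45 ± 0.39, adjusted p = 0.0254), again the 1 member called, against 0.634% of all probes. MS4A1 passed the filter in RPMI-8226 only through the UNC0638 and GSK126+UNC0638 arrays, so these counts and shares are a description. With GSK126 alone no member was called, against 0.599% of all probes, and MS4A1 was at least 1.58-fold higher (measured difference 2.49 ± 0.39, adjusted p = 0.0624). The rise was larger with both inhibitors than with either one. GSK126+UNC0638 exceeded GSK126 by 3.45 ± 0.39 (adjusted p = 9.09e-03) and UNC0638 by 2.49 ± 0.39 (adjusted p = 0.0252), and MS4A1 was again the only member called in both comparisons, in which 2.55% and 3.39% of all probes were called. The call over UNC0638 was lost without either DMSO or either UNC0638 array or without the first array of both inhibitors (adjusted p from 0.0559 to 0.136). It was lost too with no filter on dim probes and in a fit restricted to the arrays compared. UNC0638 was not tested against GSK126.

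The call with UNC0638 alone in RPMI-8226 was lost without either DMSO array (adjusted p = 0.111 both times), without either UNC0638 array (adjusted p = 0.115 and 0.0941) and without either GSK126 array (adjusted p = 0.0558 and 0.0519). It was also lost with no filter on dim probes (adjusted p = 0.0715) and after normexp background correction, which adds a constant and brought the difference to 0.62 (adjusted p = 0.562).

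In MM.1S, MS4A1 was not well above background in DMSO (-6.74 and -6.73), with GSK126 (-6.75 and -6.92) or with UNC0638 (-4.72 and -5.41), and was well above it with GSK126+UNC0638 (-3.60 and -3.06). The GSK126 arrays lay at or just under the DMSO arrays, and the UNC0638 arrays lay between those of DMSO and of both inhibitors. With both inhibitors it was at least 2.74-fold higher than with DMSO, with a measured difference of 3.41 ± 0.26 (adjusted p = 3.53e-04). The test also called the difference with UNC0638 (adjusted p = 8.18e-03), but no fold is given, since neither group was well above background, and the call was lost after normexp correction (0.13, adjusted p = 0.375). GSK126+UNC0638 exceeded UNC0638 in MM.1S by at least 2.75-fold (adjusted p = 0.0188), where MS4A1 was the 1 member called and 13.5% of all probes were called. That call was lost without the second UNC0638 array or the second array of both inhibitors. It was also lost with no filter on dim probes and in a fit restricted to the arrays compared.

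The difference between the lines was itself tested. The response of MS4A1 to GSK126+UNC0638 was larger in RPMI-8226 by 2.53 ± 0.52 (adjusted p = 0.012). Of 8 members, 2 were called in that comparison, MS4A1 and FCER2, where 13.3% of all probes were called. For GSK126 alone the MS4A1 difference was 2.59 ± 0.52 (adjusted p = 0.0601) and no member was called, against 0.783% of all probes, though MS4A1 was called with the block (adjusted p = 0.0295) and without the second RPMI-8226 GSK126 array (0.0356) or either RPMI-8226 array of both inhibitors (0.0297 and 0.0307). For UNC0638 alone it was 1.78 ± 0.52 (adjusted p = 0.102) and no member was called, against 2.89% of all probes. Each of these differences sets values against DMSO arrays on which the probe was not well above background.

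Genes of other lineages moved in the same arrays as MS4A1, in both lines. Of the 6 T cell markers, 4 rose and 1 fell with GSK126+UNC0638 in RPMI-8226. CD3D, CD3E, CD3G and CD2 were the ones that rose, and CD3G, a chain of the T cell receptor complex, by 5.79 ± 0.34 (adjusted p = 3.89e-04). The summed linear level of the list was 5.99 and 6.26 times the array's 75th percentile in DMSO and between 16.8 and 18.4 times it with both inhibitors. In MM.1S the sum went from between 9.33 and 9.44 down to between 6.61 and 6.86, with 2 markers rising and 2 falling of 5 tested. Of the monocyte and macrophage markers, CD14 and MS4A7, a family member of MS4A1, rose in RPMI-8226 and the sum moved from between 1.75 and 2.25 to between 5.55 and 6.26, while CD68 differed by 0.05 ± 0.18 (adjusted p = 0.883). In MM.1S, MS4A7 rose by 4.04 ± 0.19 (adjusted p = 1.23e-04) and CD68 by 0.77 ± 0.13 (adjusted p = 3.77e-03), and the sum moved from 0.92 on both DMSO arrays to between 1.93 and 2.22. FCGR3A was not well above background on any of the 16 arrays. Of the 2 NK cell markers tested in each line, 1 rose, NKG7 in RPMI-8226 (at least 4.92-fold, adjusted p = 2e-03) and GNLY in MM.1S (0.80 ± 0.10, adjusted p = 1.25e-03), and the sum of that list was between 8.56 and 10.4 with DMSO and between 7.2 and 8.98 with both inhibitors in RPMI-8226. In MM.1S the NK sum was between 1.16 and 1.28 with DMSO and between 1.57 and 1.86 with both inhibitors. The summed plasma cell markers went from between 302 and 346 to between 209 and 253 in RPMI-8226. In MM.1S they went from between 581 and 588 to between 407 and 418. Of 10 plasma cell markers tested, 3 fell and SLAMF7 rose (4.90 ± 0.42, adjusted p = 1.38e-03) in RPMI-8226, and 8 fell and CD28 rose (0.58 ± 0.09, adjusted p = 2.95e-03) in MM.1S. The part of these genes in the MS4A1 result was not tested.

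**Figure D2:**
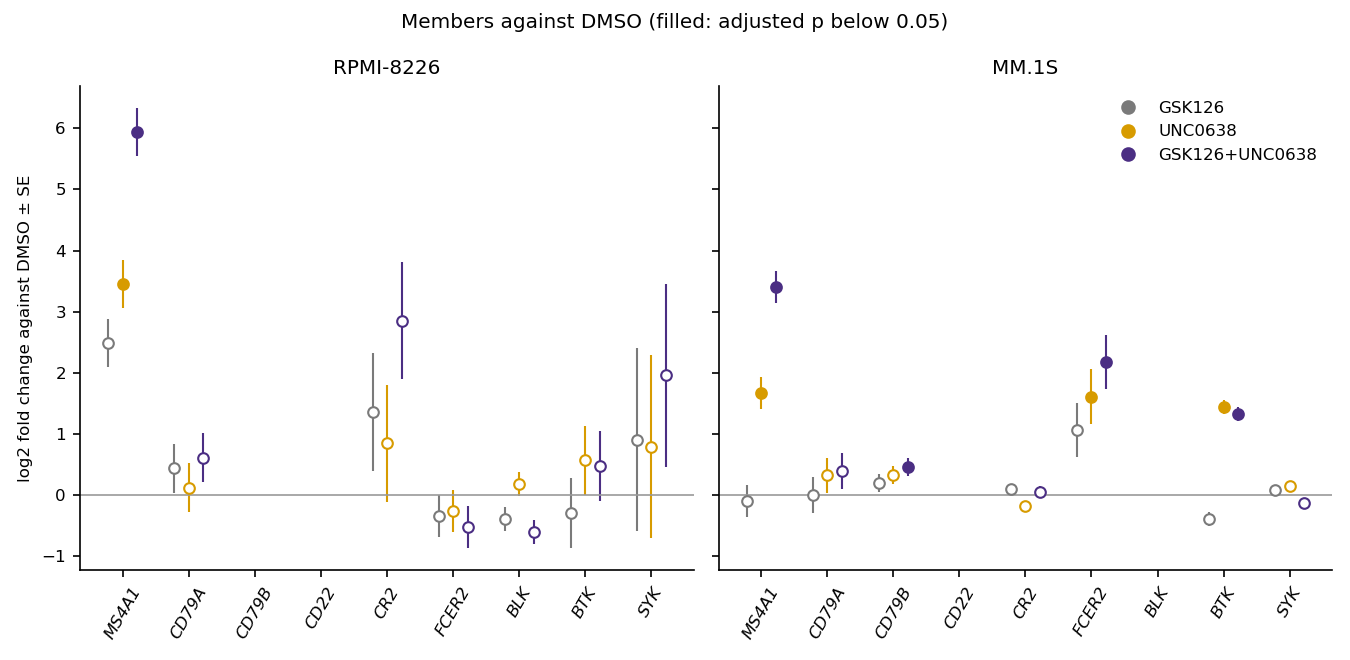
Log2 fold change against DMSO (bars, SE from limma) of each member's brightest probe with GSK126, UNC0638 or both in RPMI-8226 (left) and MM.1S (right), filled where the adjusted p was below 0.05; members with no points were not well above background on both arrays of any group of that line. MS4A1 reached 5.94 in RPMI-8226 and 3.41 in MM.1S with both inhibitors, and BTK was filled in MM.1S alone.

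FCER2 was higher with the inhibitors in MM.1S, where it started below the detection call, and was not called in RPMI-8226. In MM.1S the level was -7.03 and -5.68 with DMSO, -5.64 and -4.95 with GSK126, -4.87 and -4.63 with UNC0638, and -4.21 and -4.16 with GSK126+UNC0638. Only 1 UNC0638 array and both arrays of GSK126+UNC0638 were well above background, and the 4 groups did not overlap. With both inhibitors FCER2 was at least 1.52-fold higher than with DMSO (measured difference 2.17 ± 0.45, adjusted p = 8.13e-03). With UNC0638 it was at least 1.03-fold higher (1.61 ± 0.45, adjusted p = 0.0419), a call lost without the first DMSO array (adjusted p = 0.103) and without any 1 array of the other 3 groups (adjusted p from 0.0561 to 0.16). In RPMI-8226 the levels were -2.85 and -2.05 with DMSO and -3.21 and -2.73 with both inhibitors, groups that overlapped (-0.52 ± 0.34, adjusted p = 0.34). The responses of the 2 lines to GSK126+UNC0638 differed by -2.70 ± 0.62, RPMI-8226 minus MM.1S (adjusted p = 0.0189), a call lost without the second RPMI-8226 DMSO array (adjusted p = 0.0637), the first MM.1S DMSO array (0.053), the first RPMI-8226 array of both inhibitors (0.0546) or the second MM.1S one (0.0613).

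BTK rose with UNC0638 in MM.1S, with or without GSK126. The brighter probe read 0.41 on both DMSO arrays, -0.13 and 0.17 with GSK126, 1.83 and 1.86 with UNC0638, and 1.80 and 1.67 with GSK126+UNC0638. The arrays fell into a lower pair of groups without UNC0638 and a higher pair with it. The rise was 1.43 ± 0.12 with UNC0638 (2.70-fold, adjusted p = 1.35e-03) and 1.32 ± 0.12 with both inhibitors (2.50-fold, adjusted p = 4.64e-04). The rise with UNC0638 was not called in the fit over all 16 arrays (adjusted p = 0.0623). The exon-junction probe printed above gave 1.54 ± 0.13 and 1.49 ± 0.13 (adjusted p = 1.66e-03 and 4.77e-04). Adding GSK126 to UNC0638 made no called difference (-0.11 ± 0.12, 95% confidence interval -0.39 to 0.17, adjusted p = 0.55), while adding UNC0638 to GSK126 raised BTK by 1.72 ± 0.12 (adjusted p = 9.69e-04).

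With GSK126 alone BTK was 0.39 ± 0.12 lower than with DMSO in MM.1S, which was not called (adjusted p = 0.0936). In RPMI-8226 the brighter probe read 0.44 and 1.73 with DMSO, 0.18 and 1.39 with GSK126, 1.26 and 2.04 with UNC0638, and 1.26 and 1.85 with both. These groups overlapped and no difference was called, with 0.47 ± 0.57 for both inhibitors against DMSO (95% confidence interval -0.89 to 1.83, adjusted p = 0.607). With the block, the exon-junction probe was called for this comparison (0.67, adjusted p = 0.0475) and the brighter probe was not (adjusted p = 0.155). The response to both inhibitors was not shown to differ between the lines (-0.85 ± 0.65, RPMI-8226 minus MM.1S, adjusted p = 0.428) by the brighter probe, also with the block (adjusted p = 0.0523), while the exon-junction probe was called with the block (-0.82, adjusted p = 0.0438) and not without it (adjusted p = 0.271).

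Over the members, 3 of 7 tested in MM.1S were called with UNC0638 (MS4A1, FCER2 and BTK), against 29.3% of all probes, and 4 of 7 with GSK126+UNC0638 (the same genes and CD79B), against 53.9% of all probes. All of these were called as rises, but MS4A1 and FCER2 passed the filter in MM.1S only through the arrays of both inhibitors, and MS4A1 was not well above background with DMSO or UNC0638. With GSK126 alone 0 of 7 were called by limma, against 7.58% of all probes. Between GSK126+UNC0638 and GSK126, 2 of 7 were called, MS4A1 and BTK, against 37.1% of all probes. FCER2 was called there as well without either DMSO array (1.11, adjusted p = 0.0268 and 0.0274), and CD79A without the first GSK126 array (adjusted p = 0.0161). The shares of members called in MM.1S were thus near the shares of all probes called.

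CD79B was the smallest of the called changes. It read -0.75 and -0.80 with DMSO, -0.77 and -0.39 with GSK126, -0.53 and -0.36 with UNC0638, and -0.41 and -0.24 with both inhibitors in MM.1S, a rise of 0.45 ± 0.15 with both (1.37-fold, adjusted p = 0.0418). The call was lost without either DMSO array (adjusted p = 0.115 and 0.143), without either array of both inhibitors (adjusted p = 0.071 and 0.174) and without either UNC0638 array (adjusted p = 0.0589 and 0.0656). In all, 9 of 19 alternative settings lost this call by limma, with adjusted p up to 0.576. The median of all probes tested was -0.12 in this comparison. It was 0.07 when arrays were scaled on probes detected on all 16 arrays, where the rise of CD79B was 0.63.

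CD79A and CR2 were not called against DMSO in the 8-array fit of MM.1S. CD79A spanned 0.97 over the 8 MM.1S arrays, its 2 GSK126 arrays being the lowest and the highest, and 1.10 over the 8 RPMI-8226 arrays. Its difference with GSK126+UNC0638 was 0.40 ± 0.29 in MM.1S (adjusted p = 0.293) and 0.61 ± 0.40 in RPMI-8226 (adjusted p = 0.337). In MM.1S the DMSO arrays of CD79A (2.55 and 2.43) lay below those of UNC0638 (2.83 and 2.79) and of GSK126+UNC0638 (2.97 and 2.80). CR2 stayed between 2.46 and 2.79 in MM.1S (0.06 ± 0.09 with both inhibitors, 95% confidence interval -0.16 to 0.27), and SYK between 2.97 and 3.32 (-0.14 ± 0.09, 95% confidence interval -0.35 to 0.08).

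In RPMI-8226 the replicates of SYK and CR2 lay further apart than those of nearly all other probes. SYK was higher in replicate 2 than in replicate 1 in 4 of 4 groups, by 1.96 to 3.24, and its mean difference of 2.68 ranked 8 of 23198 by size. The brighter CR2 probe was higher by 1.54 to 2.02 (mean 1.73, rank 70) and the dimmer by 1.38 to 2.69 (mean 2.11, rank 30). BTK was higher by 0.59 to 1.29 (mean 0.97, rank 470), and FCER2 by 0.42 to 0.80. In MM.1S the mean difference was 0.01 for SYK and -0.01 for CR2. CD79B, also higher in MM.1S, allowed no such comparison of replicates, since it was not well above background on any RPMI-8226 array. The replicate number was also the row on the slide, and the part of position or culture in these differences was not tested.

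RPMI-8226 arrays of the same number shared their deviations from the group mean. The correlation of these deviations across probes was 0.254 to 0.415 over the 6 pairs of groups, and the arrays were treated as pairs in a second fit with the replicate number as a block. In blocked comparisons between the lines, the MM.1S arrays were paired by number as well. In the fit without that block no CR2 or SYK difference was called in RPMI-8226, though CR2 was called for GSK126+UNC0638 against DMSO after normexp correction (adjusted p = 0.0305), with a prior variance that follows intensity (0.047) and in the fit over all 16 arrays (0.025). With it, 4 members were called for GSK126+UNC0638 against DMSO, MS4A1, CR2, SYK and BLK, where 20.5% of all probes were called. CR2 was 2.92 higher within replicate 1 and 2.79 higher within replicate 2, with a mean of 2.85 ± 0.16 (adjusted p = 3.44e-04 with the block, 0.101 without), and its dimmer probe gave 2.80 ± 0.32 (adjusted p = 3.55e-03 with the block, 0.168 without). The DMSO and GSK126+UNC0638 arrays of CR2 did not overlap, at -2.90 and -1.16 against 0.02 and 1.63.

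SYK was 2.60 higher with both inhibitors within replicate 1 and 1.31 higher within replicate 2 (adjusted p = 0.0109 with the block, 0.408 without), and its groups overlapped, at -2.95 and 0.29 against -0.36 and 1.60. BLK fell by 0.61 on the log2 scale, from 2.51 and 2.74 to 1.81 and 2.22 (adjusted p = 0.0486 with the block, 0.0885 without). Relative to a median of -0.13 over all probes in that comparison, the fall was smaller, and with the detected-probe scaling that median was 0.00.

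With the block, GSK126 alone also gave 2 calls in RPMI-8226, MS4A1 (adjusted p = 0.0154) and CR2 (1.36 ± 0.16, adjusted p = 0.0195), where 2.21% of all probes were called. CR2 was higher with both inhibitors than with GSK126 (1.49 ± 0.16, adjusted p = 7.2e-03) and than with UNC0638 (2.01 ± 0.16, adjusted p = 2.56e-03) in the blocked fit, in which BLK also fell against UNC0638 (-0.78, adjusted p = 0.0464). The response of CR2 to GSK126+UNC0638 was larger in RPMI-8226 than in MM.1S by 2.80 ± 0.18 with the block (adjusted p = 1.05e-04) and was not called without it (adjusted p = 0.124). That of SYK was larger by 2.09 ± 0.37 with the block (adjusted p = 8.09e-03, and 0.459 without). With the block, CR2 also differed between the lines in response to GSK126 (1.27, adjusted p = 0.0172) and to UNC0638 (1.02, adjusted p = 0.0212), and FCER2 in response to UNC0638 (-1.88, adjusted p = 0.0325).

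**Figure D3:**
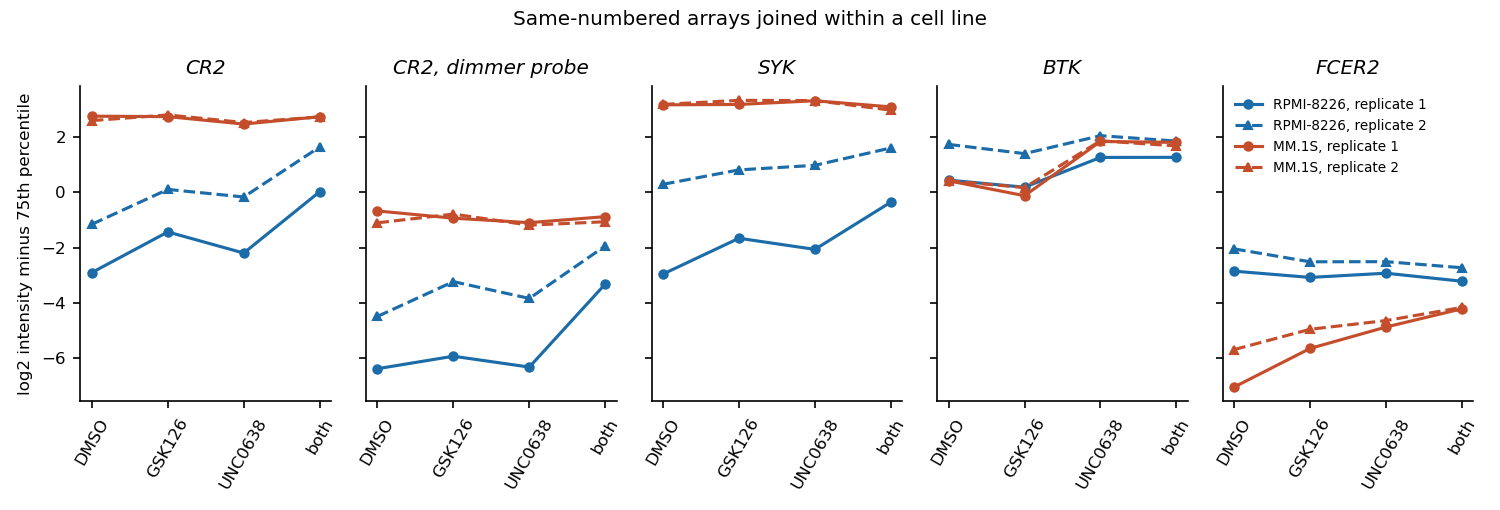
Level (log2 intensity minus the array's 75th percentile) of CR2 (both probes), SYK, BTK and FCER2 by treatment, with lines joining arrays of the same replicate number (solid 1, dashed 2) in RPMI-8226 (blue) and MM.1S (red). The 2 RPMI-8226 lines of CR2 and SYK run 1.54 to 3.24 apart in every group for the brighter probes, and the MM.1S lines of both genes lie within 0.16 of each other for these probes, while those of FCER2 are up to 1.35 apart.

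The wider B cell receptor pathway was described over 75 other genes in 3 lists. Of 23 other B cell surface genes, 14 passed the filter in each line, and with GSK126+UNC0638 5 rose and 1 fell in RPMI-8226 (42.9%, against 12.7% of all genes tested) and 9 rose and 1 fell in MM.1S (71.4%, against 55%). Their median difference was 0.83 in RPMI-8226 and 1.53 in MM.1S, where the medians over all genes tested were -0.12 and -0.13. Some probes passed the filter only through a treated group, so these shares are a description.

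Of 39 signalling genes downstream of the receptor, 28 were tested in RPMI-8226, where 4 rose and none fell by limma (14.3%), and 35 in MM.1S, where 21 rose and 5 fell (74.3%). Of 13 inhibitors of the pathway, 3 of 11 rose in RPMI-8226 (27.3%), and 4 rose and 3 fell of 13 in MM.1S (53.8%). Over all genes tested, the shares called were again 12.7% in RPMI-8226 and 55% in MM.1S. With 1 inhibitor alone, 1 (GSK126) and 2 (UNC0638) of 53 genes of the 3 lists rose in RPMI-8226 (1.89% and 3.77%, against 0.667% and 0.701% of all genes tested). In MM.1S 9 rose and 3 fell (GSK126) and 23 rose and 3 fell (UNC0638) of 62 (19.4% and 41.9%, against 7.94% and 30.3%).

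With GSK126+UNC0638, 10 of the 49 listed genes tested in both lines rose in both (20.4%, against 4.19% of 16220 genes) and none fell in both by limma (against 3.16%). FCGR2B, CD83, CBLB, PTPN22 and LYN were 5 of the 6 with the largest smaller change. The lists were chosen with earlier results of these data known. Some probes, such as that of FCGR2B in RPMI-8226, passed the filter only through a treated group, so these shares too are a description. FCGR2B, the inhibitory Fc receptor of B cells, was at least 6.28-fold higher in RPMI-8226 (adjusted p = 6.74e-03) and 36.6-fold higher in MM.1S (5.19 ± 0.12, adjusted p = 3.55e-05). CD83, a surface marker of activated B and dendritic cells, rose by 2.73 ± 0.37 and 2.05 ± 0.15.

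CBLB, a ubiquitin ligase that limits receptor signalling, rose by 1.29 ± 0.24 in RPMI-8226 and by 4.55 ± 0.33 in MM.1S, which differed (adjusted p = 1.34e-03). PTPN22, a phosphatase that acts on Src family kinases, rose by 1.02 ± 0.25 and 0.71 ± 0.17. LYN, the Src family kinase that both starts and restrains receptor signalling, rose by 1.49 ± 0.16 and 0.67 ± 0.11, which also differed (adjusted p = 0.0166). Activators and inhibitors of the receptor were both among the genes that rose.

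**Figure D4:**
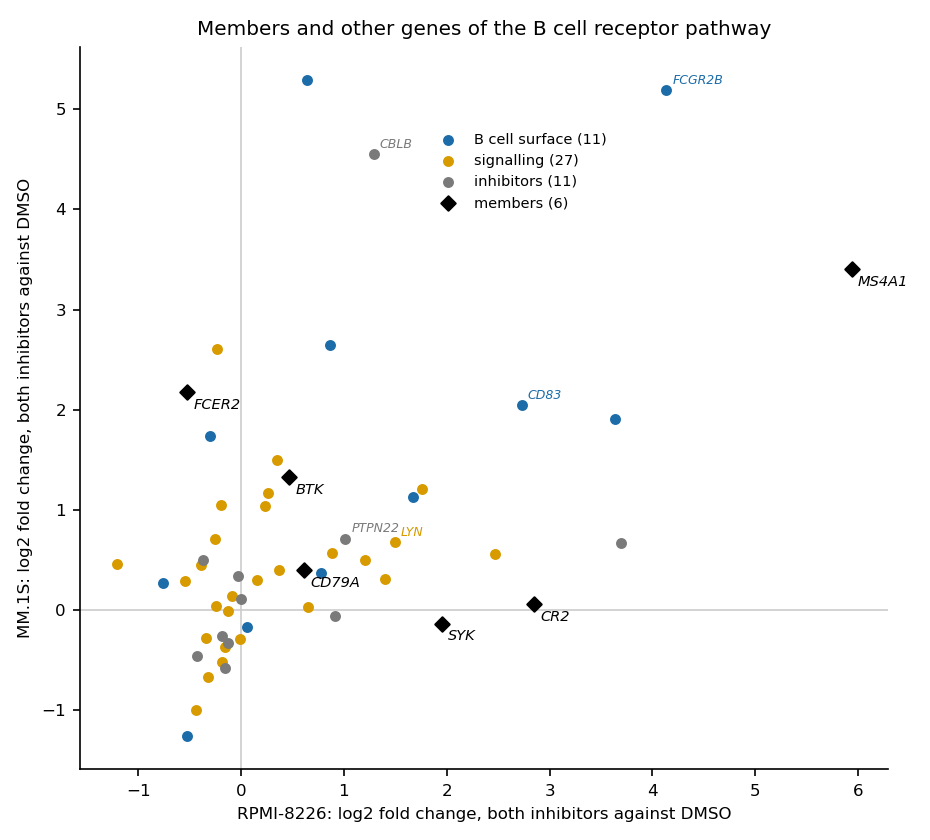
Log2 fold change with GSK126+UNC0638 against DMSO in RPMI-8226 (horizontal) and MM.1S (vertical) for the 49 listed pathway genes tested in both lines (coloured by list) and the 6 members tested in both (black diamonds), with the 5 genes named in the text labelled. MS4A1 lies at 5.94 and 3.41, CR2 and SYK lie along the RPMI-8226 axis, and FCER2 and BTK lie nearer the MM.1S axis.

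The genes whose 6 differences against DMSO (3 treatments in 2 lines) lay closest to those of a called member were found among 15539 genes by the root mean square distance on the log2 scale. For MS4A1 they were KIR2DS2 (0.747), S100A9 (0.809) and KIR2DL4 (0.863). The KIR genes are related, and whether their probes read each other's transcripts was not tested. For BTK they were GM2A (0.196), LY96 (0.261) and FAM113B (0.262). For FCER2 they were SLC9A7 (0.195), its pseudogene SLC9A7P1 (0.196) and a transcript listed as ENST00000390610 (0.199). No gene lay as close to MS4A1 as these did to the other members. The distance was not scaled to the size of the changes, which were largest for MS4A1, so it is not comparable between members. CD79B was not tested in RPMI-8226 and was left out.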

How the data were processed

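Total RNA of each culture was hybridised to a 1-colour Agilent array. The authors deposited the scanner output (Agilent Feature Extraction 10.7, per the labels), whose intensity values are background-subtracted and linear, not normalized between arrays. The deposited series table held the same intensity values, rounded. The methods of the study name Gene Spring GX for the arrays and enrichment analyses of gene sets, which were not run here, and no test for single genes.

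Control spots (4259 of 62976) and outlier spots were left out. Log2 intensity minus the array's 75th percentile was averaged over a probe's spots, and a gene was called by its brightest probe. A probe was tested where at least 1 group had it well above background on each of its arrays. Tests were run with limma 3.58.1 (R 4.3.3), over the 8 arrays of a line or all 16 for comparisons between lines, with Benjamini-Hochberg adjustment over all probes and a threshold of 0.05. The fit was tested on simulated data. The number of arrays, 2 per group, limits the precision, and p-values measure the spread between these replicates. Groups came from the labels. Pairing by replicate number was taken from the data, not from the labels. The correlation of deviations was over 0.1 in every pair of RPMI-8226 groups and in 5 of 6 pairs in MM.1S. Other genes were named where called in the same direction in both lines with GSK126+UNC0638, at most 6 per direction by the smaller change, and as the 3 nearest patterns of a called member. Some results under this rule and in the marker lists are not reported here. Alternatives were quantile and normexp scaling, filters, percentile sets, the series table, the block, leaving out each array, a prior variance that follows intensity, other sets of arrays and probe means. The members and lists were chosen with earlier results of these data known.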

Additional observations from a re-analysis of the deposited data

Results flagged for a closer look

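Responses to GSK126+UNC0638 that differed between the lines, by the test of the difference in the 16-array fit with limma, were found for 2 members. MS4A1 rose more in RPMI-8226, by 2.53 ± 0.52 on the log2 scale (adjusted p = 0.012), with the difference to DMSO higher on both arrays of both lines. FCER2 rose in MM.1S and not in RPMI-8226, a difference of -2.70 ± 0.62 (adjusted p = 0.0189). Neither probe was well above background on the MM.1S DMSO arrays, and MS4A1 was not on the RPMI-8226 DMSO arrays either, so its difference sets 2 values measured from below background against each other. The FCER2 probe was read on all 8 RPMI-8226 arrays.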

How the results depend on the processing

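Counts of members called changed under these settings, in each comparison named, and smaller changes of count are not all listed. With the replicate block, the counts were 2 for GSK126, 4 for GSK126+UNC0638, 2 for both inhibitors against GSK126 and 3 against UNC0638 in RPMI-8226, and 2, 2 and 4 for the differences between the lines in response to GSK126, UNC0638 and both. Within MM.1S the numbers were not taken as pairs (r from 0.0847 to 0.225). There the block gave 3 calls in place of 2 against GSK126 and no other change of count. The blocked differences between the lines did pair the MM.1S arrays. With a prior variance that follows intensity, the counts were 1 for GSK126, 3 for both inhibitors and 2 for both against UNC0638 in RPMI-8226, and 1 for GSK126 and 2 for both against UNC0638 in MM.1S. The fit over all 16 arrays gave 1 (GSK126) and 2 (both inhibitors) in RPMI-8226, and did not call BTK for UNC0638 in MM.1S. After normexp correction the counts were 0 (UNC0638) and 2 (both inhibitors) in RPMI-8226, and 1 (UNC0638) and 2 (both against UNC0638) in MM.1S. Without a filter on dim probes UNC0638 gave 0 calls in RPMI-8226, and both inhibitors against UNC0638 gave 0 in either line. Quantile normalization gave 1 for the difference between the lines in response to UNC0638. A fit restricted to the arrays of each comparison gave 0 for both inhibitors against UNC0638 in either line, 1 for UNC0638 in MM.1S, and 1 for the difference between the lines in response to both. Requiring a signal well above background on all arrays leaves out MS4A1 in either line, CD79B in RPMI-8226 and FCER2 and BLK in MM.1S, and the counts were 0 in RPMI-8226 for UNC0638, for both inhibitors and for both against GSK126 or UNC0638, 1, 2, 1 and 0 in MM.1S for UNC0638, both, both against GSK126 and both against UNC0638, 2 for the DMSO comparison and 0 for the difference between the lines in response to both.

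Leaving out 1 array at a time, the counts ranged from 0 to 1 for UNC0638 and for both against UNC0638 in RPMI-8226, from 0 to 1 for both against UNC0638 in MM.1S, from 2 to 3 for UNC0638, from 3 to 5 for both and from 2 to 3 for both against GSK126 in MM.1S, and from 0 to 1 and 1 to 2 for the differences between the lines in response to GSK126 and to both. No difference of a member against DMSO that was called, with or without the block, changed sign under any setting run. Changes of sign were not checked for the other comparisons. Apart from the filter, the causes of these changes were not tested.

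The 2 arrays per group, the spread between RPMI-8226 replicates and the signal over background all limit these results. CD22 was well above background on 0 arrays, CD79B on 0 of 8 in RPMI-8226, BLK on 0 of 8 and FCER2 on 3 of 8 in MM.1S, and MS4A1 on 5 of 8 and 2 of 8.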
